A study of Mus musculus with 6 samples.

Results

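This report describes the genes of the cilium and the axoneme, the microtubule core of a cilium or flagellum, in MA-10 cells and in STARKO1 cells. The genes were taken by symbol from the deposited table: the Dnah, Dnal, Dnaaf, Cfap, Drc, Rsph, Spag, Ift, Bbs, Nphp and Tctn families, the motors of intraflagellar transport, the transition zone genes and Arl13b. The rule found 79 of the 14774 genes in the table, and 71 of these 79 passed the filter on low counts and were tested among 11939 genes. MA-10 is a mouse tumor Leydig cell line that makes steroids, and 3 libraries came from untreated wild type cells. STARKO1 is a line raised from 1 sorted MA-10 cell in which CRISPR/Cas9 had cut Star, the gene of the steroidogenic acute regulatory protein, and 3 libraries came from this clone, also without treatment. With 1 clone, the loss of Star and any other difference between that clone and the parental cells cannot be told apart. No label says that the 3 libraries of a cell line came from separate cultures, so the p-values measure the spread between these libraries, which may be technical.

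Most mammalian cells can build a primary cilium, a single non-motile antenna that receives signals such as Hedgehog. Building it needs intraflagellar transport (IFT), in which trains of IFT-A and IFT-B proteins are carried by kinesin and dynein motors, and a transition zone at the base that controls which proteins enter. Motile cilia and sperm flagella add dynein arms, radial spokes, nexin links and a central pair, and many of their genes are read by the transcription factors FOXJ1 and RFX. RFX proteins bind a palindromic promoter motif, the X-box.

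The depth of the libraries ran from 14114349 to 19530054 estimated counts, and a floor of 3 counts corresponded to at most 0.264 CPM (counts scaled to the effective library size) in MA-10 and 0.177 CPM in STARKO1. Star itself gave 1064, 1261 and 697 counts in MA-10 replicates 1, 2 and 3 and 48, 46 and 36 counts in the STARKO1 replicates (77.2 ± 27.8 against 2.27 ± 0.386 CPM, SD, n = 3; log2 fold change -5.09, SE 0.331, adjusted p = 0.00121). Here and below, log2 fold changes are STARKO1 over MA-10, CPM is scaled by TMM, ± is the SD over 3 libraries, and adjusted p-values come from the quasi-likelihood test of edgeR, with the Benjamini-Hochberg method over all tested genes. MA-10 replicate 1 stood apart from the other MA-10 libraries: over 8538 genes its log2 CPM correlated at 0.802 and 0.874 with MA-10 replicates 2 and 3 and at 0.949 to 0.955 with the STARKO1 libraries. The share of counts in the 7SL RNA genes was 1.81%, 14.4% and 6.63% in MA-10 and 1.82% to 2.37% in STARKO1. All 8 Leydig markers were in the table, with a summed level of 1370 to 1900 CPM in MA-10 and 1190 to 1260 CPM in STARKO1. The largest parts were Cyp11a1 (835 and 439 CPM) and Nr5a1 (472 and 633 CPM). Star, Cyp11a1, Hsd3b1, Lhcgr and Fdx1 had negative log2 fold changes, and Nr5a1, Insl3 and Cyp17a1 positive ones. Besides Star, Hsd3b1 alone was called (log2 fold change -2.52, adjusted p = 0.00268). Of 6 markers of multiciliated cells 2 were in the table, and Foxj1, Mcidas, Gmnc and Tekt1 had no row. Those present, Ccno and Tppp3, summed to 19.4 to 26.0 CPM in MA-10 and 8.43 to 8.73 CPM in STARKO1. Nearly all of this sum was Tppp3 (21.2 and 8.48 CPM), with Ccno, too low to be tested, at 0.689 and 0.124 CPM. The part of multiciliated markers in the results was not tested. The markers of male germ cells (1 of 6 in the table, 2.2 to 3.55 and 1.91 to 2.83 CPM), Sertoli cells (1 of 5, 16.9 to 20.0 and 17.5 to 20.2 CPM), macrophages (2 of 4, 4.86 to 9.85 and 6.37 to 8.56 CPM) and myoid cells (1 of 3, 0.347 to 0.969 and 0.281 to 0.43 CPM) overlapped between the cell lines. The endothelial markers (2 of 3) summed to 26.4 to 41.5 CPM in MA-10 and 118 to 124 CPM in STARKO1. Nearly all of this was Cdh5 (33.8 and 121 CPM), with Pecam1 at 0.423 and 0.729 CPM. In bulk RNA, fewer cells that express a gene and less RNA per cell cannot be told apart.

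Of the 71 tested cilium genes, 8 passed an adjusted p of 0.05, which is 11.3%, beside 9.04% of all tested genes. Dnah10 and Cfap157 were higher in STARKO1 (2 genes, 2.82%, beside 4.3% of all tested genes), and 6 genes were lower (8.45%, beside 4.74%), among them Rsph9, Rsph3a, Drc3, Cfap44 and Tmem231. The share called was therefore close to that of all genes. At an unadjusted p under 0.05 there were 30 cilium genes, 25 lower and 5 higher, or 35.2% and 7.04% of those tested beside 22.7% and 15.0% of all genes. The libraries of the cell lines did not overlap in 29 of the 71 genes (40.8%, beside 42.5% of all tested genes), with 22 lower in STARKO1 (31.0%, beside 21.0%) and 7 higher (9.86%, beside 21.5%). The median log2 fold change over the 71 genes was -0.36, beside -0.05 over all tested genes, with 48 genes negative and 23 positive. When libraries were scaled by their total alone, the median of all genes moved by 0.43 to 0.38 and that of the cilium genes to 0.12. Relative to the median of all genes the cilium genes lay lower by 0.31 with TMM and by 0.26 with the total alone, and 45 of 71 were below that median with either scaling.

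**Figure D1:**
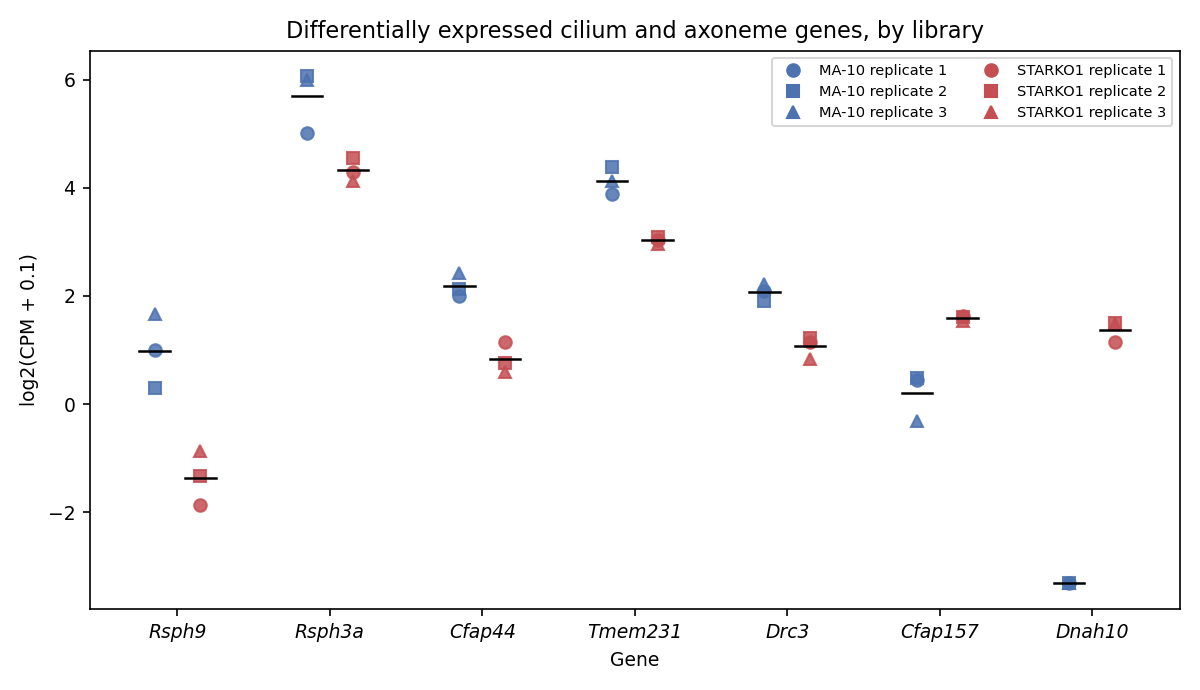
Level of 7 called cilium genes in each library as log2(CPM + 0.1), TMM scaled, with 1 symbol for each replicate of MA-10 and STARKO1 and the mean of each cell line as a bar. Dnah10 had 0 counts in each MA-10 library and 2.11 to 2.71 CPM in STARKO1, and for all 7 genes the groups did not overlap.

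Dynein heavy chains, the motor subunits of the axonemal arms, were few: 3 of the 15 Dnah genes of the GENCODE M21 annotation were in the table. Dnah10, a heavy chain of the inner dynein arm (GRCm38 chr5:124725085-124834308, plus strand), had 0, 0 and 0 counts in the MA-10 libraries and 49, 46 and 48 counts in STARKO1 replicates 1, 2 and 3. The STARKO1 levels were 2.11, 2.71 and 2.70 CPM (2.51 ± 0.344), all above every MA-10 library. Against a floor of 3 counts per library, Dnah10 was at least 9.48-fold higher in STARKO1 (adjusted p = 0.00742). Dnah10 remained low in absolute terms, at 0.156 CPM per kilobase of exon in STARKO1. It reached the count minimum in STARKO1 alone, so a gene with its MA-10 level throughout would not have been tested. Gm43777, an opposite-strand gene not analysed here, overlaps a Dnah10 exon, and whether counting used strand is not given in the sources used here.

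Dnah5, a heavy chain of the outer arm, went the other way without passing the test: 2.75, 1.65 and 2.29 CPM in MA-10 and 0.86, 1.24 and 1.07 CPM in STARKO1 (log2 fold change -1.09, SE 0.316, adjusted p = 0.0676). The groups did not overlap, at 19 to 48 counts a library. Dnah2, the partner of Dnah10 in the same inner arm, had 3, 3 and 7 counts in MA-10 and 7, 6 and 5 in STARKO1 and was too low to be tested. The opposite-strand RNA Dnah2os, with 1 to 5 counts a library, was not tested either. Of the 3 heavy chains edgeR called Dnah10, and DESeq2 called Dnah10 and Dnah5 (adjusted p = 0.0486 for Dnah5).

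The neighbours of Dnah10 on chromosome 5 were chosen after its values were seen. Atp6v0a2, a proton pump subunit whose gene ends 630 bases upstream, was at 60.2 CPM in MA-10 and 47.4 CPM in STARKO1 (log2 fold change -0.35, adjusted p = 0.324). Ccdc92, which lies 110 bases downstream, was at 3.31 ± 0.545 and 5.10 ± 1.21 CPM (log2 fold change 0.62, adjusted p = 0.141). Of the 20 other tested genes within 500000 bases of Dnah10, 0 were called by edgeR, 6 were at an unadjusted p under 0.05 and 2 were called by DESeq2, beside 9.04%, 37.6% and 24.9% of all genes. Their log2 fold changes ran from -1.67 to 0.64.

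The promoters were searched for the X-box because RFX factors bind it in ciliary genes. RefSeq promoters (build GRCm38.p6, 250 bases before to 50 bases after each start) were given for 66 of the 79 genes. The half-site GTTGCCA, on either strand, was in 18 of these 66 (27.3%), in 14 of 96 other ciliary genes (14.6%), and in 407 of 8779 tested genes with a promoter (4.64%). The full site, GTTNCC then NN then GGNAAC without a gap, which reads the same on both strands, was in 5 of 66 (7.58%), 5 of 96 (5.21%) and 55 of 8779 (0.626%). In Mks1 the half-site lies inside the full site. Over the cilium genes the half-sites started between 140 bases before and 41 bases after the listed start, with a median of 12 bases before it. Of the 6 genes with a promoter that edgeR called, Dnah10 and Cfap44 held a half-site and 0 held a full site. Among the 27 promoters of genes at an unadjusted p under 0.05, 5 held a half-site (18.5%) and 4 a full site (14.8%).

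The sequences of Dnah10 and Cfap44 are shown because these are the genes called by edgeR that have a match. Each runs 5′ to 3′ on the gene's strand from 100 bases before to 30 bases from the start, with the half-site in capitals (Cfap44 carries it as its reverse complement, and has another match further upstream). They come from chr5:124724985-124725114 and chr16:44394699-44394828, both on the plus strand.
Dnah10: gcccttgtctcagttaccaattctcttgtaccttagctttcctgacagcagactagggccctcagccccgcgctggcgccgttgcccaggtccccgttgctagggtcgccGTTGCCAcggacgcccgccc
Cfap44: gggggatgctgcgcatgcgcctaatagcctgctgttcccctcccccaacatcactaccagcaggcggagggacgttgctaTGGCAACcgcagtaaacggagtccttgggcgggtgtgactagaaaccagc

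The full sites of the 5 cilium genes that hold one are shown with up to 8 bases on either side, full site in capitals, on the gene's strand. They lie at chr10:20952560-20952589 (plus), chr3:36613489-36613518 (minus), chr16:90935016-90935045 (minus), chr11:87853183-87853212 (plus) and chr5:122264411-122264432 (minus), in the order listed.
Ahi1: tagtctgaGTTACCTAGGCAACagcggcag
Bbs7: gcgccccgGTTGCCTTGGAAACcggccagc
Cfap298: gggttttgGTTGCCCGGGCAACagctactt
Mks1: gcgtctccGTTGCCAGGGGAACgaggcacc
Tctn1: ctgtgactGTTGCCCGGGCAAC

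**Figure D2:**
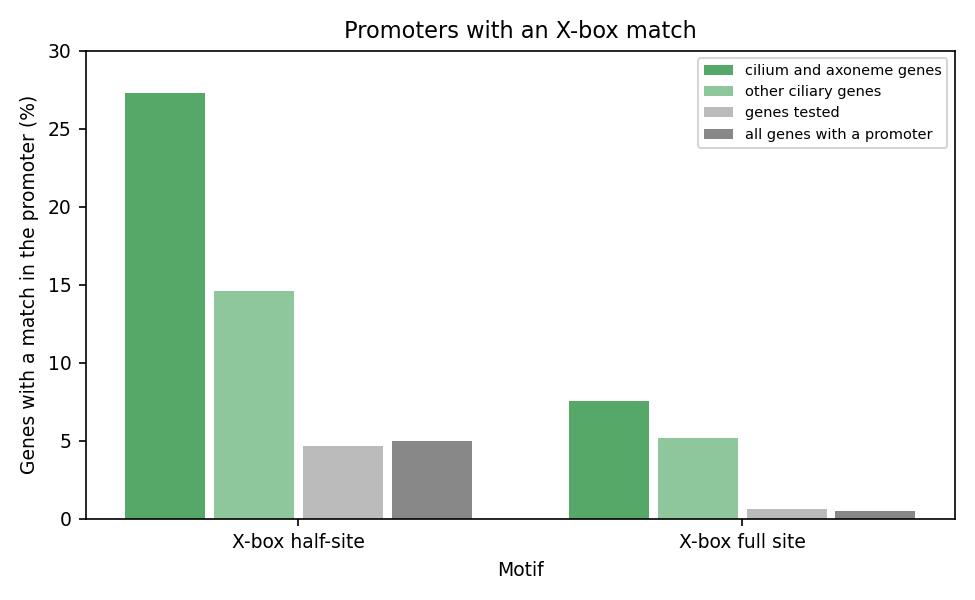
Share of promoters (percent) that hold the X-box half-site or full site in the cilium genes, the other ciliary genes, the tested genes and all RefSeq promoters. The half-site was in 27.3% of the cilium genes and in 4.64% of the tested genes.

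Of the 5 genes with a full site edgeR called 0, with 4 at an unadjusted p under 0.05, and DESeq2 called 4 (Ahi1, Cfap298, Mks1 and Tctn1). Over all genes these shares were 9.04%, 37.6% and 24.9%. Tctn1, Mks1 and Bbs7 are named here for their promoter match, not for their values. Tctn1 and Mks1, members of the transition zone complex, were lower in every STARKO1 library than in any MA-10 library. Tctn1 was at 4.81, 14.2 and 9.25 CPM in MA-10 and 2.75, 3.42 and 3.09 CPM in STARKO1 (log2 fold change -1.60, adjusted p = 0.0519). Mks1 was at 2.52, 3.99 and 3.52 CPM against 1.25, 1.83 and 1.07 CPM (log2 fold change -1.27, adjusted p = 0.0558). Bbs7, a BBSome subunit, overlapped between the groups, with 7.96, 18.9 and 13.4 CPM against 10.2, 9.02 and 10.5 CPM (log2 fold change -0.43, adjusted p = 0.33). A match in the letters is a description and does not show binding.

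Radial spokes, nexin links and the central pair gave 3 of the called genes among 9 tested of 12 in the table. All 3 were lower in STARKO1, and the median log2 fold change of the role was -0.44. Among all tested genes 9.04% were called, 4.74% lower, and the median was -0.05. Rsph9, a protein of the radial spoke head (chr17:46122035-46144216, minus strand), was counted 33, 13 and 35 times in MA-10 and 4, 5 and 8 times in STARKO1. These counts are 1.89, 1.13 and 3.08 CPM against 0.172, 0.295 and 0.449 CPM, so each STARKO1 library was below every MA-10 library (6.65-fold lower, log2 fold change -2.73, SE 0.529, adjusted p = 0.0301). Rsph9 reached the count minimum in MA-10 alone.

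Rsph3a, a protein of the spoke stalk (chr17:7945614-7979824, plus strand), was at 32.2, 67.0 and 64.1 CPM in MA-10 and 19.4, 23.4 and 17.5 CPM in STARKO1 (2.71-fold lower, log2 fold change -1.44, SE 0.304, adjusted p = 0.0372). Its near-identical paralog Rsph3b was at 41.7 ± 7.08 and 41.1 ± 2.42 CPM (log2 fold change -0.02, adjusted p = 0.931). Both hold estimated counts that are not whole, so how reads were divided between the paralogs is uncertain. Their sum was 81.4, 102 and 105 CPM in MA-10 and 62.6, 61.8 and 59.0 CPM in STARKO1, with no overlap.

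Drc3, a subunit of the nexin-dynein regulatory complex (chr11:60353329-60394341, plus strand), was at 4.18, 3.64 and 4.58 CPM in MA-10 and 2.11, 2.24 and 1.69 CPM in STARKO1. It was 2.05-fold lower in STARKO1, with no overlap (log2 fold change -1.04, SE 0.237, adjusted p = 0.0446). Drc1, a subunit of the same complex, and Rsph10b were too low to be tested. In the same role Cfap20, a protein of the inner junction, was at 85.9, 144 and 154 CPM in MA-10 and 94.9, 99.4 and 87.4 CPM in STARKO1 (log2 fold change -0.44, adjusted p = 0.217), and its sign turned to 0.07 when libraries were scaled by their total alone.

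Of the 9 other Cfap genes tested, 1 was called in each direction, beside 4.3% of all tested genes called higher and 4.74% called lower. Cfap157, needed for the sperm flagellum (chr2:32777381-32784428, minus strand), was counted 22, 15 and 8 times in MA-10 and 70, 50 and 50 times in STARKO1, or 1.26, 1.30 and 0.704 CPM against 3.01, 2.95 and 2.81 CPM. It was 2.65-fold higher in STARKO1, with no overlap (log2 fold change 1.41, SE 0.304, adjusted p = 0.0398). It is among the 28 cilium genes whose exons overlap exons of another gene. Cfap44, which tethers an inner dynein arm (chr16:44394796-44482428, plus strand), was at 3.89, 4.25 and 5.28 CPM in MA-10 and 2.11, 1.59 and 1.40 CPM in STARKO1. It was lower, with no overlap (log2 fold change -1.38, SE 0.267, adjusted p = 0.0301).

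Among the Cfap genes short of the threshold, Cfap298, which takes part in dynein arm assembly, was at 37.6, 208 and 143 CPM in MA-10 and 29.9, 33.2 and 33.5 CPM in STARKO1 (log2 fold change -2.01, SE 0.557, adjusted p = 0.0632). MA-10 replicate 1 was above the STARKO1 libraries but far closer to them than to the other MA-10 libraries. Cfap69, a protein of the central pair that reached the count minimum in STARKO1 alone, was counted 6, 5 and 3 times in MA-10 and 18, 15 and 15 times in STARKO1 (log2 fold change 1.24, adjusted p = 0.0661).

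Dynein arm assembly factors, which fold and load the arms in the cytoplasm, gave no call by edgeR among 4 tested of 5 (median log2 fold change 0.13). At an unadjusted p under 0.05 there was 1, and DESeq2 called 1. The shares of all genes were 9.04% by edgeR, 37.6% unadjusted and 24.9% by DESeq2. Dnaaf2 was at 13.8 ± 5.08 and 6.67 ± 1.09 CPM (log2 fold change -1.04, adjusted p = 0.0761). Dnaaf5 was at 22.5, 7.03 and 9.33 CPM in MA-10 and 20.9, 23.9 and 23.4 CPM in STARKO1, with MA-10 replicate 1 inside the STARKO1 range (log2 fold change 0.80, adjusted p = 0.199). The light chains Dnal1 (10.3 ± 2.05 and 6.57 ± 0.542 CPM, adjusted p = 0.0806) and Dnal4 (8.25 ± 1.72 and 6.23 ± 0.898 CPM, adjusted p = 0.22) did not pass, and the sign for Dnal4 turned to 0.07 with scaling by the total alone.

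**Figure D3:**
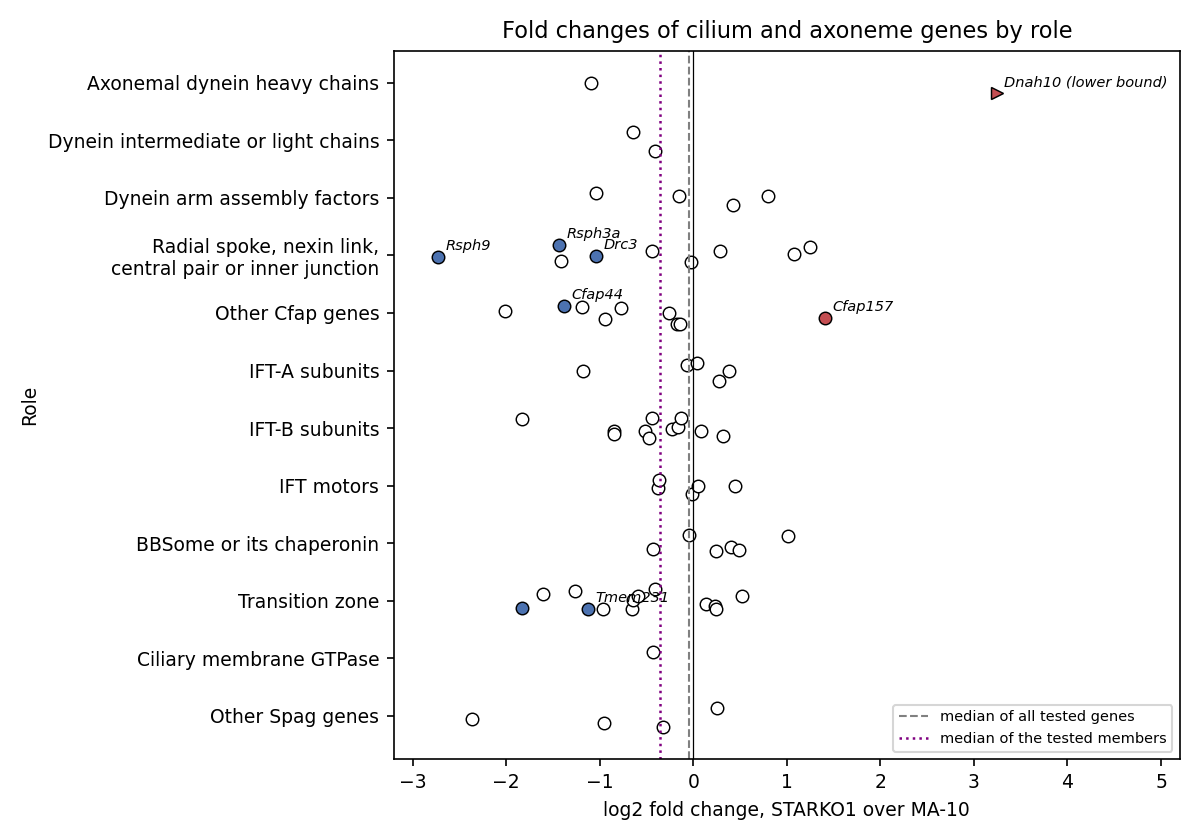
Log2 fold change (STARKO1 over MA-10) of each tested cilium gene, by role, with called genes filled and Dnah10 drawn at its lower bound. The transition zone genes had a median of -0.65 and the genes of the BBSome or its chaperonin of 0.32, and most roles spanned 0.

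The transition zone, the gate at the base of the cilium, gave 2 calls among 13 tested of 14 genes (median log2 fold change -0.65, 9 negative). Among all 11939 tested genes 9.04% were called and 6313 were negative, with a median of -0.05. At an unadjusted p under 0.05 there were 5 of the 13, and DESeq2 called 5, beside 37.6% and 24.9% of all genes. Tmem231, a membrane protein of the Meckel syndrome complex (chr8:111912011-111933881, minus strand), was at 14.7, 20.7 and 17.4 CPM against 8.13, 8.43 and 7.64 CPM. It was 2.18-fold lower, with no overlap (log2 fold change -1.12, SE 0.186, adjusted p = 0.0204). Tmem231 holds some estimated counts that are not whole, so some of its reads were divided between features. Ahi1, which encodes jouberin, was at 22.0, 31.3 and 27.9 CPM against 17.8, 15.1 and 18.9 CPM (log2 fold change -0.65, adjusted p = 0.071), with no overlap.

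Intraflagellar transport genes matched by the symbol rule were expressed at higher levels and gave no call. Among these, edgeR called 0 of 5 genes in IFT-A, 0 of 11 in IFT-B and 0 of 5 motor genes. At an unadjusted p under 0.05 there were 1, 4 and 1, and DESeq2 called 1, 1 and 0. Of 19 tested IFT and BBSome genes outside the rule, edgeR called 2, Ttc30a1 (higher) and Fuz (lower), and DESeq2 called 5. Over all genes the shares called were 9.04% by edgeR and 24.9% by DESeq2, with 37.6% at an unadjusted p under 0.05. The median log2 fold change was 0.04 in IFT-A (range -1.18 to 0.38), -0.44 in IFT-B (-1.83 to 0.32, 9 of 11 negative) and -0.01 in the motors (-0.38 to 0.45). The IFT-B genes Ift46 and Ift74 and the IFT-A gene Ift43 shared a pattern in which MA-10 replicate 1 lay near STARKO1. Ift46 was at 13.6, 91.0 and 57.4 CPM in MA-10 and 15.2, 15.0 and 15.1 CPM in STARKO1 (log2 fold change -1.83, adjusted p = 0.083). Ift74 was at 23.3, 53.7 and 57.7 CPM against 26.9, 24.2 and 23.5 CPM (log2 fold change -0.85, adjusted p = 0.118). Ift43 was at 10.2, 29.4 and 24.3 CPM against 10.4, 9.49 and 8.20 CPM (log2 fold change -1.18, adjusted p = 0.0806). In each of these 3 genes the groups overlapped through MA-10 replicate 1.

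Ift172, another IFT-B gene, was at 29.6, 35.5 and 34.0 CPM in MA-10 and 21.4, 25.8 and 23.8 CPM in STARKO1, with no overlap (log2 fold change -0.48, adjusted p = 0.0849). Dync2li1, a subunit of the retrograde motor, was at 25.2, 31.7 and 29.3 CPM against 23.7, 21.5 and 21.1 CPM (log2 fold change -0.38, adjusted p = 0.132), and its sign turned to 0.09 when libraries were scaled by the total alone. Arl13b, a small GTPase of the ciliary membrane, was at 36.8, 31.6 and 34.7 CPM against 25.8, 25.1 and 25.8 CPM, with no overlap (log2 fold change -0.43, adjusted p = 0.0859). None of these 3 genes passed the test.

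The BBSome is a coat that carries membrane proteins along the cilium. Of 6 tested genes of the BBSome or its chaperonin, 4 were positive (median log2 fold change 0.32, range -0.43 to 1.01). Among the BBSome subunits, Bbs2 (0.41) and Bbs9 (0.49) were positive and Bbs4 (-0.04) and Bbs7 (-0.43) negative. The other positive genes, Bbs10 (0.24) and Bbs12, are chaperonin-like. Neither edgeR nor DESeq2 called any of these 6 genes, beside 9.04% and 24.9% of all genes. At an unadjusted p under 0.05 there were 2, beside 37.6% of all genes. Bbs2 was at 24.2, 20.1 and 22.5 CPM in MA-10 and 32.2, 27.8 and 28.5 CPM in STARKO1 (log2 fold change 0.41, adjusted p = 0.11). Bbs12, a chaperonin-like protein that helps to assemble the BBSome, was at 1.26, 0.607 and 0.616 CPM against 2.11, 1.83 and 1.24 CPM (log2 fold change 1.01, adjusted p = 0.121). Bbs2 did not overlap between the groups, and in Bbs12 MA-10 replicate 1 exceeded 1 STARKO1 library.

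The symbol rule also took 4 Spag genes, Spag4, Spag5, Spag7 and Spag9, which are named for sperm antigens and are grouped here apart from the axonemal genes. By edgeR 0 were called, with 2 at an unadjusted p under 0.05, and DESeq2 called 1. The shares of all genes were 9.04%, 37.6% and 24.9%. Spag4, a SUN domain protein, was at 1.95 ± 0.643 and 0.999 ± 0.215 CPM (log2 fold change -0.95, adjusted p = 0.108). Spag7 was at 92.8, 641 and 412 CPM in MA-10 and 73.8, 74.2 and 73.7 CPM in STARKO1 (log2 fold change -2.37, adjusted p = 0.0599). Without these genes and Dnah2os, 67 tested genes had the same 8 calls and the same median of -0.36.

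Levels per length differed between the roles. They were taken in CPM per kilobase of exon, as the median over tested genes of the mean of both cell lines. The median was 0.0914 for the 2 tested heavy chains, 0.68 for radial spokes and links and 0.702 for the BBSome or its chaperonin. It was 1.13 for other Cfap genes and 1.24 for the transition zone. It was 2.77 for IFT-A, 5.39 for IFT-B and 7.05 for the transport motors. The median over all tested genes was 5.46. IFT-B and the motors were near it, and the heavy chains, spokes, BBSome, other Cfap genes, transition zone and IFT-A were below it. Of the 79 genes, 8 were too low to be tested, and these were Bbs1, Dnah2, Dnah2os, Dnaaf1, Cfap70, Drc1, Rsph10b and Rpgrip1.

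**Figure D4:**
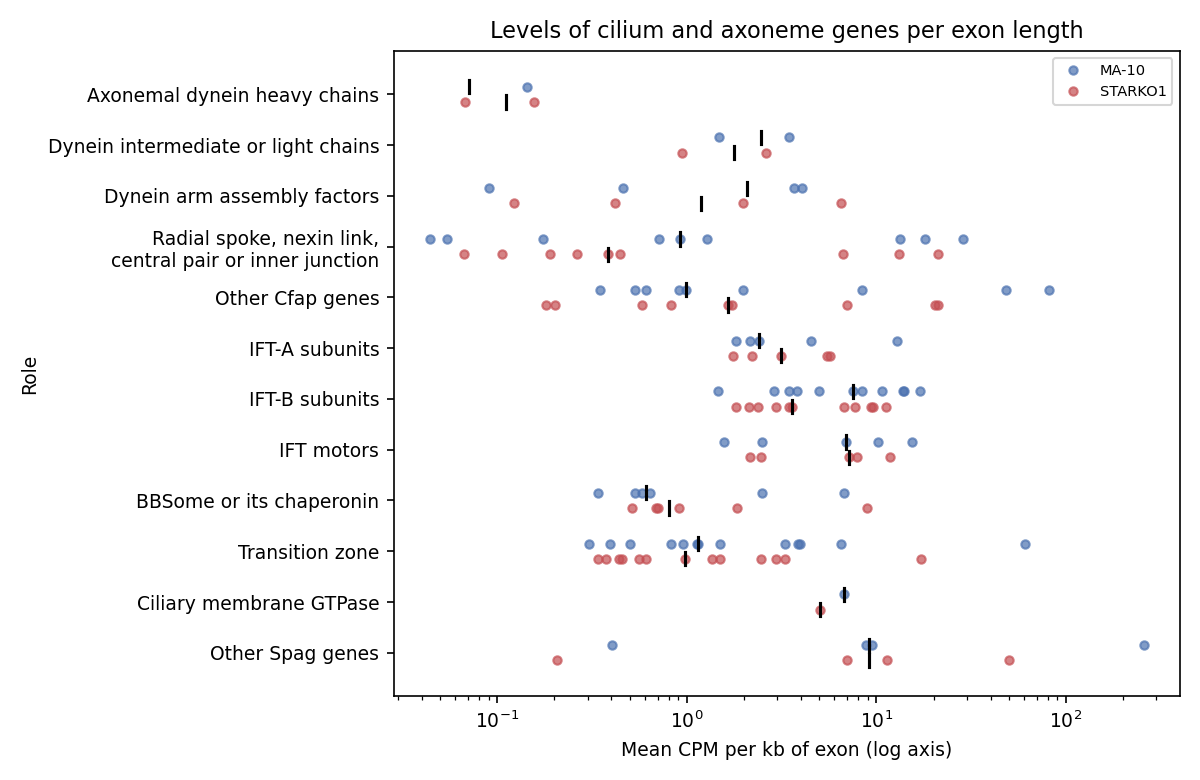
Mean level per gene in CPM per kilobase of exon (log axis), by role, in MA-10 and STARKO1. By the median over tested genes the heavy chains lay lowest (0.0914), the transport motors were at 7.05 and the other Spag genes at 9.15. Dnah10 in MA-10, at 0, is not drawn.

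The rest of the ciliary programme was read from a list of 150 further genes, of which 113 were in the table and 98 were tested. Of these, 6 were called (6.12%, beside 9.04% of all tested genes), 3 in each direction, and the median log2 fold change was -0.20. The higher genes were Alms1, a basal body protein, Evc, a Hedgehog regulator at the cilium, and Ttc30a1, an IFT-B subunit. Alms1 was at 61.0, 44.8 and 52.3 CPM in MA-10 and 92.4, 93.7 and 96.1 CPM in STARKO1 (log2 fold change 0.84, SE 0.167, adjusted p = 0.0328). Evc was at 5.10, 3.04 and 3.08 CPM against 7.70, 11.0 and 9.49 CPM (log2 fold change 1.31, SE 0.277, adjusted p = 0.0372). Ttc30a1, with estimated counts that are not whole, was at 8.42, 5.81 and 5.55 CPM against 14.3, 14.1 and 13.3 CPM (log2 fold change 1.07, SE 0.211, adjusted p = 0.0318). In all 3 every STARKO1 library was above every MA-10 library. Of the 9 tested genes listed for Hedgehog signalling at the cilium, 8 were positive and Evc alone was called, while 5626 of all 11939 tested genes were positive. In 4 of the 9 every STARKO1 library was above every MA-10 library, beside 21.5% of all tested genes. In Gpr161, Sufu, Ptch1 and Gli1, named after their values were seen, MA-10 replicate 1 lay inside or above the STARKO1 range. Smo, another gene of this group, named after its values were seen, was too low to be tested. It went the other way, with 9, 6 and 3 counts in MA-10 and 0, 0 and 0 in STARKO1.

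The lower genes were Fuz, a planar polarity effector needed for ciliogenesis, Tppp3, a tubulin-binding protein, and Ttll5, a tubulin polyglutamylase. Tppp3, which is also a multiciliated cell marker, was at 19.0, 25.5 and 19.0 CPM in MA-10 and 8.65, 8.31 and 8.48 CPM in STARKO1 (log2 fold change -1.32, SE 0.183, adjusted p = 0.0114). Fuz was at 4.41, 8.93 and 7.31 CPM against 3.10, 2.53 and 2.75 CPM (log2 fold change -1.29, adjusted p = 0.047), and Ttll5 at 23.0, 22.4 and 29.0 CPM against 14.0, 14.4 and 16.1 CPM (log2 fold change -0.74, adjusted p = 0.0465). Of the 8 tested ciliary transcription genes edgeR called 0, with 2 at an unadjusted p under 0.05, and DESeq2 called 1. The shares of all genes were 9.04%, 37.6% and 24.9%. Foxj1, Rfx4, Mcidas, Gmnc and Trp73 had no row in the table.

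The calls depended on single libraries. Without MA-10 replicate 1, which stood apart, 44 of 72 tested cilium genes were called (61.1%, beside 65.7% of all tested genes), 31 lower and 13 higher, including the same 8. Without MA-10 replicate 2, 3 of the 8 were called (Dnah10, Rsph9 and Tmem231), beside 4.19% of all tested genes, and without MA-10 replicate 3 Dnah10 alone was, beside 1.49%. Without STARKO1 replicate 1, 2 or 3 edgeR called 0 cilium genes, with 16, 19 and 20 at an unadjusted p under 0.05, beside 0.73%, 1.11% and 0.76% of all tested genes called. The loss of calls thus extended over the whole table. The adjusted p of Dnah10 was then 0.0563, 0.0556 and 0.0612. The Dnah10 groups did not overlap with every library in, so leaving 1 out could not make them overlap and adds no support. With the replicate number as a term of the fit, Dnah10 alone was called, beside 1.96% of all tested genes.

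Over the 71 genes, the median log2 difference from the STARKO1 mean was 0.03 in MA-10 replicate 1, 0.47 in replicate 2 and 0.44 in replicate 3, beside medians between -0.0 and 0.02 over all genes. MA-10 replicate 1 was the nearest MA-10 library to the STARKO1 mean in 41 of 71 cilium genes (57.7%), beside 63.9% of all tested genes. By these medians alone MA-10 replicate 1 was level with the STARKO1 mean and the other MA-10 libraries were above it. Single genes departed in both directions: replicate 1 was at 2.35 in Rsph9 and -1.15 in Cfap157, and replicate 2 at -1.68 in Dnaaf5. Exon length moved with the fold change as well: 22 cilium genes under 3 kilobases had a median of -0.55 and 49 longer ones of -0.23, beside -0.24 and 0.01 over all genes. The part of transcript length in these differences was examined only through the length offsets given in the closing section. With these offsets, the median log2 fold change was -0.23 over cilium genes and -0.03 over all tested genes, against -0.36 and -0.05 without.

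**Figure D5:**
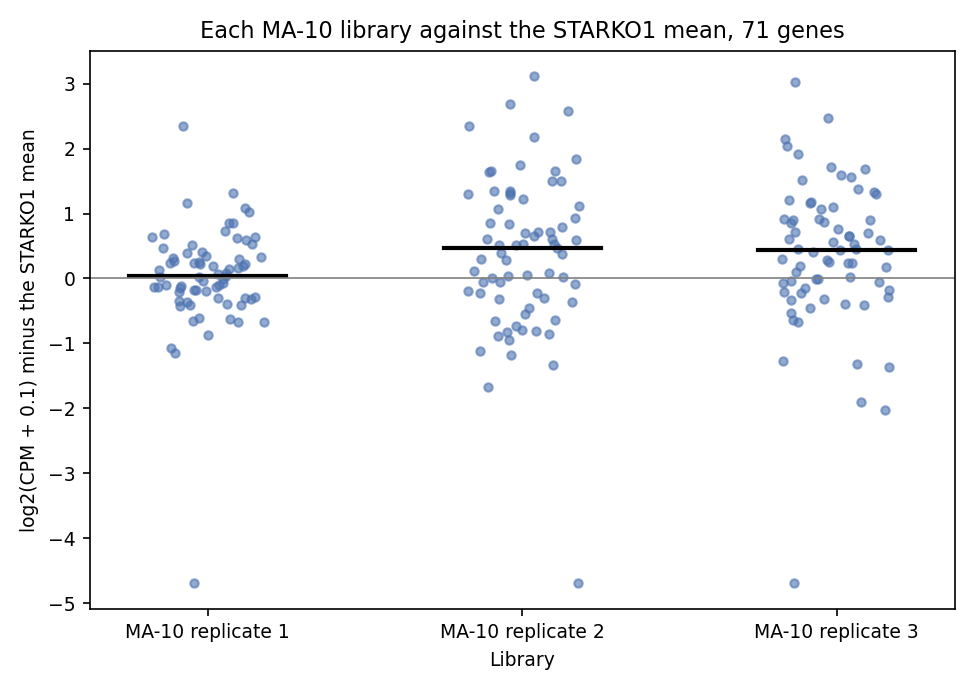
Log2 difference of each MA-10 library from the STARKO1 mean over the 71 tested cilium genes, one distribution for each library. The median was 0.03 in replicate 1, 0.47 in replicate 2 and 0.44 in replicate 3.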

How the data were processed

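RNA was sequenced from 3 MA-10 and 3 STARKO1 libraries prepared with a stranded total RNA kit (SMARTer). The authors aligned reads with STAR 2.6.1d to mm10 and quantified genes in Partek, per the labels, and deposited the estimated counts of 14774 genes. The counts were rounded to whole numbers. Genes were kept by edgeR's filterByExpr (11939 of 14774), scaled by TMM and tested with the quasi-likelihood test of edgeR 4.0.16, with Benjamini-Hochberg adjustment. Estimated counts were not whole in 15 cilium genes (tolerance 0.001), where reads were divided between features. The depth was 14114349 to 19530054 counts per library. A floor of 3 counts covers counting error only. Exon lengths came from GENCODE M21 and promoters from RefSeq.

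Named genes were Star, every called cilium gene and Dnah gene, in each role the gene with the highest level per kilobase and those with the lowest and highest fold change at an unadjusted p under 0.05, and called genes of a list of 150 other ciliary genes. The members and lists were chosen with earlier results of these data known. Alternatives were other scalings and filters, the replicate number as a block, gene length offsets, thinned counts, DESeq2 1.42.0, and leaving out each library. The test was checked on simulated data. Set tests were not run, and Leydig and other cell markers were used as a check of the labels. Results of some named genes are not reported here.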

Additional observations from a re-analysis of the deposited data

How the results depend on the processing

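The 8 called cilium genes became 4 with at least 10 counts required in every library (beside 6.44% of all genes; 0 higher by edgeR, since that filter removed Dnah10 and Cfap157, and Rsph9 too), 1 with scaling by library size alone (beside 2.76%; 1 higher, 0 lower, 21 at an unadjusted p under 0.05) and 19 with DESeq2 (17 lower, 25.0% of 76 beside 24.9% of all genes). Upper quartile scaling and no filter gave 6 (beside 6.94% and 6.41%), and thinned counts and gene length offsets gave 8 (beside 8.53% and 10.3%). Of the other ciliary genes, 6 called became 0 with library size alone (0 higher, 0 lower, 22 unadjusted, beside 2.76% of all genes called). They became 10 of 98 with length offsets (7 lower, beside 10.3%) and 31 with DESeq2 (8 higher, 23 lower, beside 24.9%). With upper quartile scaling and with at least 10 counts 1 was lower (beside 6.94% and 6.44% of all genes called). Leaving out each library gave 0 to 44 called cilium genes (0 to 13 higher, 0 to 31 lower) and 0 to 66 other ciliary genes (0 to 28 higher, 0 to 38 lower). In these fits 0.73% to 65.7% of all genes were called. The median log2 fold change moved from -0.36 to 0.12 with library size alone, where Cfap20 (0.07), Dnal4 (0.07) and Dync2li1 (0.09) reversed sign. The causes were not tested.

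Deviations of same-numbered libraries correlated at -0.01655, 0.04548 and 0.0201, and those of differently numbered libraries at -0.05345 to 0.03821. The labels do not say what the replicate number marks, and whether it stands for a shared culture or day was not tested. Fitting the replicate block, 1 cilium gene was called (1 higher, 0 lower, 25 unadjusted), Dnah10 at an adjusted p of 0.0454, and 0 other ciliary genes (0 higher, 0 lower, 31 unadjusted), while calls over all genes fell from 1079 to 234. Not every library correlated best with its own number. The median of the cilium genes minus that of all genes ranged from -0.44 to -0.17 over the alternatives.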
